A study of Brassica napus with 24 samples.

Results

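Leaf ageing without any water shortage was examined in well-watered oilseed rape, by comparing 3 control libraries harvested at 20 d with 3 control libraries harvested at 5 d. These 6 libraries, out of 24 in the series, are the members of the comparison and were chosen by their labels and not by any measured value. The study followed leaves of *Brassica napus* cv. Trezzor (wild type) in a greenhouse by stranded mRNA sequencing, in plants whose watering was stopped (water deficit, WD) and in controls. Both groups used here had the same genotype and were kept throughout at 80% of field capacity, the water a soil holds after draining. The 20 d group was harvested 50 days after planting and the 5 d group 35 days after planting, and days are counted from the start of the treatment in the WD plants. Each library came from a pool of 2 plants, and only leaves that had developed since 0 d were sampled, so the 20 d harvest holds leaves of more ages than the 5 d harvest. Plant age, harvest date and leaf composition moved together and cannot be told apart, and the hour of harvest is not given in the sources used here.

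A leaf first imports carbon and nutrients while its cells divide and expand, then exports sugars for most of its life, and finally takes apart its proteins, nucleic acids and chlorophyll. In the last phase, senescence, transcription factors of the NAC and WRKY families are known in Arabidopsis to act as regulators, cysteine and aspartic peptidases break down proteins, and glutamine synthetase converts the released ammonium to a transportable amide. Phloem-bound nitrogen, phosphorus and metals leave the blade through membrane transporters, and oilseed rape is known for shedding leaves that still hold much nitrogen.

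Of 101040 annotated genes, 54274 passed the filter on low counts, and 16992 of them (31.3%) differed between harvests at an adjusted p of at most 0.05. At 20 d 9538 genes (17.6%) were higher and 7454 (13.7%) were lower than at 5 d. The changes upward were larger, with a median log2 fold change of 1.75 among the genes that rose and -1.10 among those that fell, and 4242 genes rose but 893 fell by at least 4-fold. Of the counts of a library, a median of 24.4% lay on the genes called higher at 20 d, against 5.82% at 5 d. Genes called lower took a median of 24.1% at 20 d, against 46.3% at 5 d. A set of 753 genes that rose had at most 3 counts in each 5 d library, while 14 genes that fell had at most 3 counts in each 20 d library. These limits are not equal, since 3 counts are 1.37, 2.95 and 3.27 normalized counts at 20 d, against 3.89, 3.885 and 2.26 at 5 d. The limit was strictest in the first 20 d library, and how far this lowered the count of 14 was not tested. In bulk leaves, fewer cells of a type and less RNA per cell cannot be told apart.

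The libraries held 14088868 to 31112368 counts on genes at 20 d and 13263953 to 22242737 at 5 d. The 10 most abundant genes took 2.95 to 3.29% of counts at 20 d and 5.41 to 6.16% at 5 d, and pairs outside annotated genes made up 5.54 to 6.30% at 20 d and 4.75 to 4.88% at 5 d. The part of these shifts in the results was not tested. Between a 20 d and a 5 d library, the root mean square difference of log2 normalized counts averaged 1.45, against 0.636 among the 20 d libraries and 0.658 among the 5 d libraries. The number of called genes was 10397 without the second 20 d library, 11172 without the second 5 d library and 9532 without the third 5 d library, and 8061 kept their call and its direction in each of the 6 fits that left out 1 library. The leaf markers available, 5 genes of chlorophyll-binding and photosystem proteins, were all detected, with a summed level of 2422 to 2841 normalized counts at 20 d and 3868 to 4563 at 5 d.

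**Figure D1:**
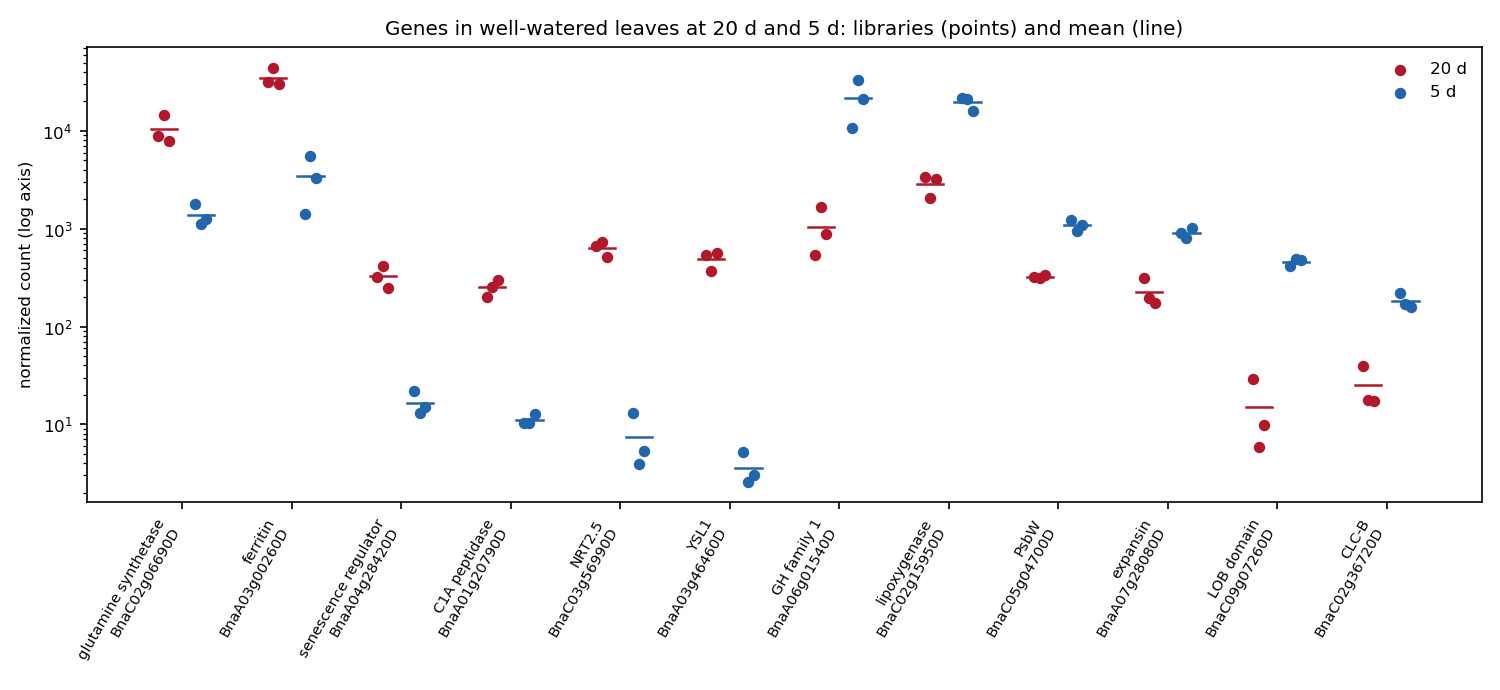
Normalized counts (log axis) of 12 named genes in the 3 libraries of 20 d (red, left) and the 3 of 5 d (blue, right), with points for libraries and a line for the mean. The first 6 genes lie higher at 20 d and the last 6 lower, with no overlap between harvests in any of the 12. The rule that named the largest changes required no overlap, and 51.5% of all tested genes showed none.

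Genes whose products recycle nitrogen and hold iron were among the most abundant annotated genes that rose. Only genes with a domain annotation or a symbol in the study's tables could be named this way. Glutamine synthetase BnaC02g06690D, which assimilates ammonium, had 8957, 14608 and 7948 normalized counts at 20 d, against 1786, 1114 and 1260.1 at 5 d (log2 fold change 2.96 ± 0.48 (SE), adjusted p = 0.000823). Every 20 d library was above every 5 d library. Ferritin, the plastid store of iron, was represented by BnaA03g00260D with 31311, 44309 and 29862 normalized counts at 20 d, against 1405, 5605 and 3287 at 5 d (log2 fold change 3.38 ± 0.61 (SE), adjusted p = 0.0014). A second ferritin gene, BnaC03g00160D, had 20303, 27952 and 19654 at 20 d, against 606, 2792 and 915 at 5 d (log2 fold change 4.05 ± 0.61 (SE), adjusted p = 0.000569). For both ferritin genes the first 5 d library was the lowest of the 6. The catalase BnaC07g15280D, which removes hydrogen peroxide in peroxisomes, had 10903, 10692 and 10342 at 20 d, against 4961, 5453 and 4967 at 5 d (log2 fold change 1.05 ± 0.30 (SE), adjusted p = 0.0162). The dehydrin BnaC06g36880D, of a family known to protect cells against drying, changed least of these abundant annotated risers (log2 fold change 0.85 ± 0.30 (SE), adjusted p = 0.0451). It had 6206, 11275 and 8339 at 20 d, against 6039, 3779 and 4456 at 5 d. Its lowest 20 d library lay just above its highest 5 d library.

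Families annotated for senescence and protein breakdown differed in direction. The domain annotations come from 1999 genes, the rows used here of a longer list of genes that the study had called for water deficit on libraries that include these controls. The list is therefore not independent evidence of a direction, and each family count below covers only the members among those rows. Of these 1288 genes rose (64.4%) and 184 (9.20%) fell, and each family below has to be read against those shares as well as against 17.6% and 13.7% of all tested genes. Among 5 genes of the senescence regulator family, 4 rose, with a median log2 fold change of 2.20. BnaA04g28420D of this family had 322, 413 and 245 normalized counts at 20 d, against 22.1, 12.9 and 15.1 at 5 d (log2 fold change 4.31 ± 0.47 (SE), adjusted p = 0.000136). All 3 papain-type cysteine peptidases (C1A) rose, among them BnaA01g20790D with 201, 256 and 299 at 20 d, against 10.4, 10.4 and 12.8 at 5 d (log2 fold change 4.58 ± 0.80 (SE), adjusted p = 0.0012). A second C1A peptidase, BnaA07g13180D, had no count in any 5 d library and 32.4, 59.9 and 102 normalized counts at 20 d, at least 19.4-fold higher when 3 counts per library are taken as the floor. Of 10 aspartic peptidases, 8 rose, or 5 without either the second or the third 5 d library, and BnaC04g05720D had 231, 423 and 207 at 20 d, against 1.30, 2.59 and 0.754 at 5 d, at least 85.8-fold higher. Of the serine carboxypeptidases, 0 of 6 were higher and 4 lower, among them BnaCnng22970D with 28.8, 81.6 and 28.3 at 20 d, against 332, 337 and 269.8 at 5 d (log2 fold change -2.83 ± 0.46 (SE), adjusted p = 0.000776).

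Transcription factor families differed in their counts. All 28 WRKY genes of these rows rose, with a median log2 fold change of 4.92, or 4.42 when 6 genes at the floor in the 5 d libraries are set to their bound. BnaA03g13820D, a WRKY gene, had 59.4, 88.4 and 70.8 normalized counts at 20 d and none at 5 d, at least 21.8-fold higher. Of 22 NAC genes, 21 rose, and BnaCnng60710D had 179, 179.8 and 378 at 20 d, against 2.60, 1.29 and 2.26 at 5 d, at least 73.4-fold higher. AP2/ERF genes, a family that includes the ethylene response factors, rose in 18 of 22 cases. Other families were mixed, with 10 of 26 genes with a Myb domain higher and 2 lower, and 5 of 12 bHLH genes higher and 3 lower. The lower Myb-domain gene BnaCnng24780D also carries a DnaJ domain. Without the second 20 d, the second 5 d or the third 5 d library, the higher Myb genes numbered 6, 6 and 5 in that order, and the higher bHLH genes 2 in each case; 1 bHLH gene was lower without the third 5 d library, and 1 Myb gene was lower without the first 20 d, the second 20 d or the second 5 d library. Dof zinc finger genes were higher in 1 of 9 cases and lower in 3. Among the 10 largest annotated falls by fitted fold change was BnaC09g07260D, a LOB-domain gene of a family known for work at organ boundaries, with 29.2, 5.90 and 9.81 at 20 d, against 413, 486 and 473 at 5 d (log2 fold change -5.09 ± 0.65 (SE), adjusted p = 0.000259). Of 5 genes with a response regulator receiver domain, the type that passes on cytokinin signals among others, 3 fell, including BnaC06g35700D (log2 fold change -3.61 ± 0.76 (SE), adjusted p = 0.00334).

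**Figure D2:**
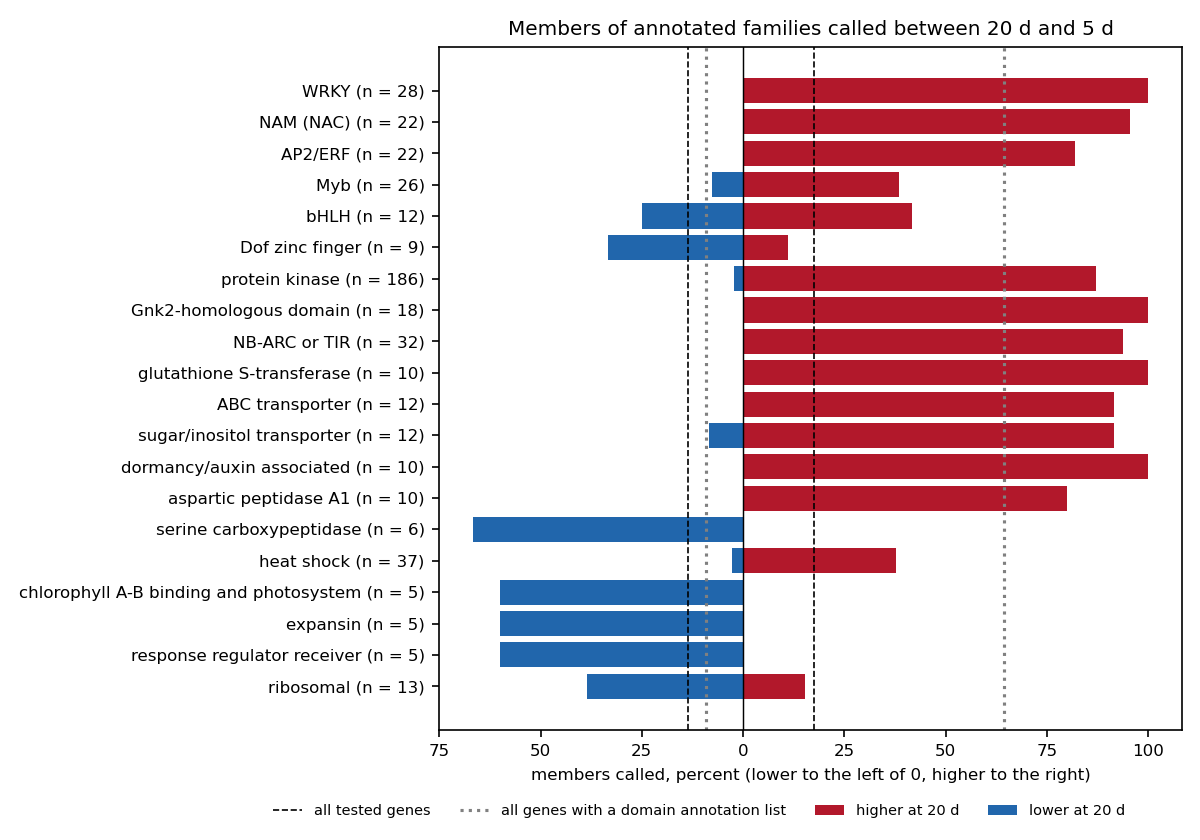
Percent of the members of 20 annotated families that were called lower (blue, left of 0) or higher (red, right of 0) at 20 d, with dashed lines at 17.6% and 13.7% for all tested genes and dotted lines at 64.4% and 9.20% for all annotated rows used here. WRKY, Gnk2-homologous, glutathione S-transferase and dormancy/auxin genes reached 100% higher, and expansin, photosystem, response regulator and serine carboxypeptidase genes had none called higher.

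Protein kinases, a family with many kinds of members that includes receptors, were higher in 162 of 186 cases and lower in 4. The cysteine-rich receptor kinases with a Gnk2-homologous domain rose in 18 of 18 cases (median log2 fold change 4.36), the wall-associated kinases in 13 of 13 and the S-locus lectin kinases in 17 of 19. BnaA08g25370D, an S-locus type kinase, had 211, 419.5 and 174 normalized counts at 20 d and none at 5 d, at least 80.2-fold higher. Intracellular resistance proteins with an NB-ARC or TIR domain rose in 30 of 32 cases, and BnaC06g23900D had 32.0, 77.6 and 108 at 20 d and none at 5 d. Thaumatin-like genes, a family of antifungal proteins, rose in 6 of 7 cases, and BnaA06g13430D spread widely at 20 d, with 1265, 593 and 3399, against 6.49, 1.29 and 6.03 at 5 d (log2 fold change 8.54 ± 1.76 (SE), adjusted p = 0.00305). Calcium-sensing EF-hand genes rose in 22 of 24 cases, and all 5 calmodulin-binding genes and all 7 VQ genes, whose products bind WRKY proteins, were higher. VQ gene BnaC06g16070D was at least 113-fold higher, with 513, 264 and 359.7 at 20 d, against 0, 1.29 and 0 at 5 d.

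Genes of detoxification families were among the annotated genes with large rises. The cytochrome P450 gene BnaC07g37460D, of a family of oxidising enzymes, had 425, 503 and 469 normalized counts at 20 d and no count at 5 d, at least 139-fold higher. P450 genes as a family were higher in 20 of 29 cases and lower in 1. All 10 glutathione S-transferases rose, and BnaCnng35440D had 285, 487 and 229 at 20 d, against 0, 0 and 0.754 at 5 d. ABC transporters rose in 11 of 12 cases, including BnaA06g09880D with 972, 3124 and 2529 at 20 d, against 18.2, 6.48 and 6.03 at 5 d (log2 fold change 7.64 ± 1.46 (SE), adjusted p = 0.002). Carriers of the sugar/inositol family rose in 11 of 12 cases, and the exception BnaC02g48280D fell (log2 fold change -2.80 ± 0.51 (SE), adjusted p = 0.00152). The sulfotransferase BnaA09g14900D, at least 139-fold higher, had 516, 481 and 399 at 20 d, against 0, 0 and 0.754 at 5 d. BnaC05g02440D, which has no annotation in the tables used, had 668, 103 and 693 at 20 d and none at 5 d, at least 146-fold higher.

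Of the 114 ion transporter genes listed by the study, which were also chosen from these libraries, 60 rose (52.6%) and 7 fell (6.14%). Of all tested genes, 17.6% rose and 13.7% fell. The median log2 fold change of the 114 was 1.17. Element counts here and in the paragraphs that follow have to be read against both pairs of shares. Without the second 5 d library 39 rose, and without the third 33. Nitrogen transporters rose without exception, 13 of 13, of which 8 were called without the second 5 d library and 6 without the third. NRT2.5, a high-affinity nitrate carrier in Arabidopsis, had 660, 737 and 517 normalized counts at 20 d (BnaC03g56990D), against 13.0, 3.88 and 5.28 at 5 d (log2 fold change 6.59 ± 1.03 (SE), adjusted p = 0.000673). Its partner NRT3.1 (BnaC03g27680D), which Arabidopsis NRT2 proteins need for transport, had 52.5, 91.4 and 80.7 at 20 d, against 2.60, 2.59 and 0 at 5 d, at least 22.4-fold higher. The nitrate and potassium carrier NPF7.3 (BnaA05g35790D) was at least 41.9-fold higher, with 85.4, 203 and 132 at 20 d, against 1.30, 0 and 0.754 at 5 d. The nitrate carrier and sensor NPF6.3 changed less, since its 4 copies rose by log2 fold changes of 1.10 to 2.14. Ammonium carrier AMT1-1 had 2 copies that rose, BnaA05g35560D with 1383, 1317 and 1463 at 20 d, against 332, 247 and 209.5 at 5 d (log2 fold change 2.38 ± 0.59 (SE), adjusted p = 0.00813), and BnaC08g08610D, at least 13.1-fold higher.

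Phosphate transporters rose in 12 of 20 cases and fell in none, and 7 rose without the second 5 d library and 6 without the third. All 5 copies of PHT1-4, a phosphate uptake carrier, rose. One of them, BnaC04g06480D, had 819.9, 853 and 1073 normalized counts at 20 d, against 13.0, 12.9 and 10.6 at 5 d (log2 fold change 6.33 ± 1.25 (SE), adjusted p = 0.00236). Of 8 copies of PHO1;H3, related to a phosphate exporter, 5 rose. PHO1;H3 copies varied more within the 20 d group, as in BnaA06g38130D with 378, 73.7 and 468 at 20 d, against 11.7, 2.59 and 3.77 at 5 d (log2 fold change 5.70 ± 1.42 (SE), adjusted p = 0.00851), where the second 20 d library was the lowest. Phosphate, nitrate and ammonium carriers of these families are best known from roots, and the 18 genes with PHT1, NRT2, AMT1 or PHO1 symbols summed to 4313 to 6138 normalized counts at 20 d, against 596 to 793 at 5 d, with 13 higher and none lower. That sum covers these symbols only and leaves out the nitrate carrier NPF7.3, which also rose. Whether other tissue has a part in this was not tested.

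**Figure D3:**
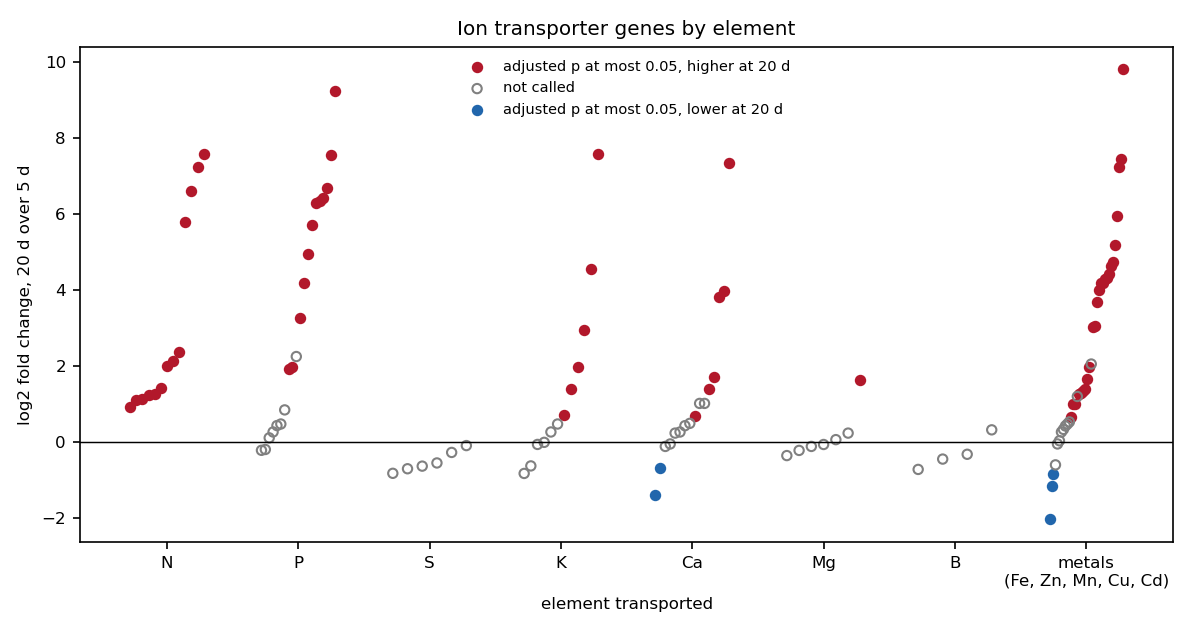
Log2 fold change of 20 d over 5 d for ion transporter genes, grouped by the element carried, 1 point a gene, filled where the adjusted p is at most 0.05. All 13 nitrogen genes are called higher, and no sulfur or boron gene is called; fitted changes of genes with no count at 5 d depend on the prior count and are not bounds.

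Metal transporters rose in 25 of 38 cases and fell in 3, and 16 rose without the third 5 d library. The 3 copies of YSL1, which carries metals bound to nicotianamine, all rose, and BnaA03g46460D had 540.3, 366 and 567 normalized counts at 20 d, against 5.19, 2.59 and 3.01 at 5 d (log2 fold change 7.45 ± 1.15 (SE), adjusted p = 0.000639). Zinc and iron permease ZIP5 rose in both copies, with 448, 739.9 and 525 at 20 d, against 50.6, 19.4 and 28.6 at 5 d for BnaA10g03460D (log2 fold change 4.19 ± 0.67 (SE), adjusted p = 0.000749). Manganese transporter NRAMP1 (BnaC06g19550D) had 30.1, 151 and 66.5 at 20 d and no count at 5 d, at least 24.7-fold higher. ABCG36 (BnaA07g19610D), an exporter known in Arabidopsis for cadmium and for defence against fungi, had 4971, 6824 and 6293 at 20 d, against 548, 306 and 215 at 5 d (log2 fold change 3.99 ± 0.78 (SE), adjusted p = 0.00218). Copies of ZIF1, listed as a metal transporter, were called in opposite directions. BnaA03g04470D was higher, with 223, 51.1 and 392 at 20 d, against 10.4, 3.88 and 5.28 at 5 d (log2 fold change 5.17 ± 1.44 (SE), adjusted p = 0.0154), whereas BnaC02g04980D was lower, with 193, 145 and 157 at 20 d, against 365, 419.6 and 312 at 5 d (log2 fold change -1.14 ± 0.25 (SE), adjusted p = 0.00395), as was BnaA02g01840D (log2 fold change -0.83 ± 0.22 (SE), adjusted p = 0.012). MEB1 (BnaC01g20480D), an iron and manganese transporter of endoplasmic reticulum bodies, also fell (log2 fold change -2.02 ± 0.49 (SE), adjusted p = 0.00783).

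Other ions gave fewer calls. Potassium transporters rose in 6 of 12 cases (3 without either the second or the third 5 d library) and fell in none, with both copies of the channel CNGC3 higher, as in BnaC04g01250D (log2 fold change 4.54 ± 0.93 (SE), adjusted p = 0.00291). Calcium transporters rose in 6 of 16 cases and fell in 2 (12.5%, near the 13.7% of all tested genes). Only 2 rose without the second 20 d, the second 5 d or the third 5 d library, and 1 fell without the first 20 d or the third 5 d library. The calcium uniporter CMCU rose in both copies, with 555, 743 and 991 normalized counts at 20 d and 127, 20.7 and 46.0 at 5 d for BnaA07g12410D (log2 fold change 3.81 ± 0.53 (SE), adjusted p = 0.000388). CSC1 (BnaC03g64830D), a stretch-gated channel, fell (log2 fold change -1.38 ± 0.22 (SE), adjusted p = 0.000744). CLC-B (BnaC02g36720D), listed as a chloride transporter, had the largest fitted fall of the 114 genes (log2 fold change -2.86 ± 0.50 (SE), adjusted p = 0.00123). It had 39.7, 17.7 and 17.4 at 20 d, against 221, 169.6 and 157 at 5 d. None of 6 sulfate and none of 4 boron transporters was called, with medians of -0.58 and -0.38. Of 7 magnesium transporters 1 rose (14.3%, near the 17.6% of all tested genes). A missed threshold does not show that these genes were unaltered.

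Members of families known for defence and storage were among the most abundant annotated genes that fell. The glycoside hydrolase family 1 gene BnaA06g01540D, of the family that holds the myrosinases of mustard-oil defence, had 544, 1679 and 876 normalized counts at 20 d, against 10787, 32837 and 21104 at 5 d (log2 fold change -4.39 ± 0.86 (SE), adjusted p = 0.0022). BnaC06g05340D of the same family fell too (log2 fold change -3.67 ± 0.96 (SE), adjusted p = 0.0111). Lipoxygenase BnaC02g15950D, of the family that starts jasmonate synthesis, had 3361, 2072 and 3260.1 at 20 d, against 21773, 21106 and 16152 at 5 d (log2 fold change -2.74 ± 0.53 (SE), adjusted p = 0.00222). The class B acid phosphatase BnaC03g77680D, of the family of vegetative storage proteins, had 8418, 5544 and 5711 at 20 d, against 19782, 21847 and 17473 at 5 d (log2 fold change -1.58 ± 0.44 (SE), adjusted p = 0.0159). Mannose-binding lectin BnaC03g22030D fell as well (log2 fold change -2.38 ± 0.58 (SE), adjusted p = 0.00783). A gene annotated as a 6-phosphogluconolactonase, BnaC07g30000D, fell as well, with 10.5, 24.6 and 95.9 at 20 d, against 1914, 3778 and 2886 at 5 d (log2 fold change -6.26 ± 1.17 (SE), adjusted p = 0.00175). Among genes with no annotation in the tables used, BnaC07g24390D had no count at 20 d, against 89.5, 53.1 and 53.5 at 5 d, at least 25.9-fold lower, and BnaC02g36390D had none at 20 d, against 46.7, 40.1 and 39.9 at 5 d, at least 16.7-fold lower. No library of one harvest reached into the range of the other for any of these genes, which held for 51.5% of all tested genes. For those named as the largest falls, the naming rule required it.

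Genes of growth and photosynthesis were fewer in the annotated list. Of 5 expansins, which loosen walls of growing cells, 3 fell and none rose, and BnaA07g28080D had 311, 195 and 175 normalized counts at 20 d, against 898, 809 and 1016 at 5 d (log2 fold change -2.11 ± 0.35 (SE), adjusted p = 0.00086). Of 5 chlorophyll-binding and photosystem genes 3 fell. PsbW (BnaC05g04700D), a small subunit of photosystem II, had 317, 313 and 334 at 20 d, against 1219, 957 and 1099 at 5 d (log2 fold change -1.75 ± 0.21 (SE), adjusted p = 0.000171), and the assembly factor Psb27 (BnaAnng39860D) fell as well (log2 fold change -1.56 ± 0.24 (SE), adjusted p = 0.000698). The word ribosomal stood in the annotation of 13 genes, which included an Hsp90 (BnaC08g11400D) and a helicase (BnaC04g31840D). Of these 13, 5 were lower and 2 higher. The count of lower ones ranged from 1 to 10 over the alternative fits, lowest without the third 5 d library. Chitinases of family 19 split, since BnaC03g37570D fell (log2 fold change -3.32 ± 0.45 (SE), adjusted p = 0.000347) and BnaA03g20290D rose (1 of 2 rising chitinases was called without the second or the third 5 d library), with 919, 605 and 2269 at 20 d, against 11.7, 15.5 and 10.6 at 5 d (log2 fold change 6.60 ± 1.27 (SE), adjusted p = 0.00205). Genes of the dormancy/auxin associated family, which mark arrested growth in buds, rose in 10 of 10 cases, with a median log2 fold change of 1.73. The A and C subgenomes gave nearly the same shares, with 17.7% and 17.4% of tested genes higher and 14.3% and 13.2% lower.

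Further well-watered controls, named here 11 d and 18 d, were also sequenced. The labels give the 11 d and 5 d groups one and the same harvest date. Whether the 11 d libraries carry the correct harvest could not be worked out, so no order in time is read from their values. The 3 libraries of 18 d lay near those of 20 d, with a mean difference of 0.636 from the 20 d libraries and 1.32 from the 5 d libraries. The 11 d libraries stood apart from each other, by 1.14 on average. The first 11 d library was 1.26 from the 20 d libraries and 0.728 from the 5 d libraries, while the third was 0.884 from the 20 d libraries and 1.62 from the 5 d libraries. Glutamine synthetase BnaC02g06690D had 2109.9, 4279 and 10007 normalized counts at 11 d and 8054, 7169 and 6361 at 18 d. PHO1;H3 copy BnaA06g38130D had 11.2, 1496 and 4868 at 11 d, so that 2 of those libraries exceeded every 20 d library, and 158, 499 and 141 at 18 d. LOB-domain gene BnaC09g07260D had 277, 91.8 and 26.9 at 11 d and 25.8, 27.1 and 28.5 at 18 d. Between 20 d and 11 d, 713 genes were called (1.31%), 439 higher (0.809%) and 274 lower (0.505%), a number that was 20 without the second 11 d library and 2534 without the third.

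**Figure D4:**
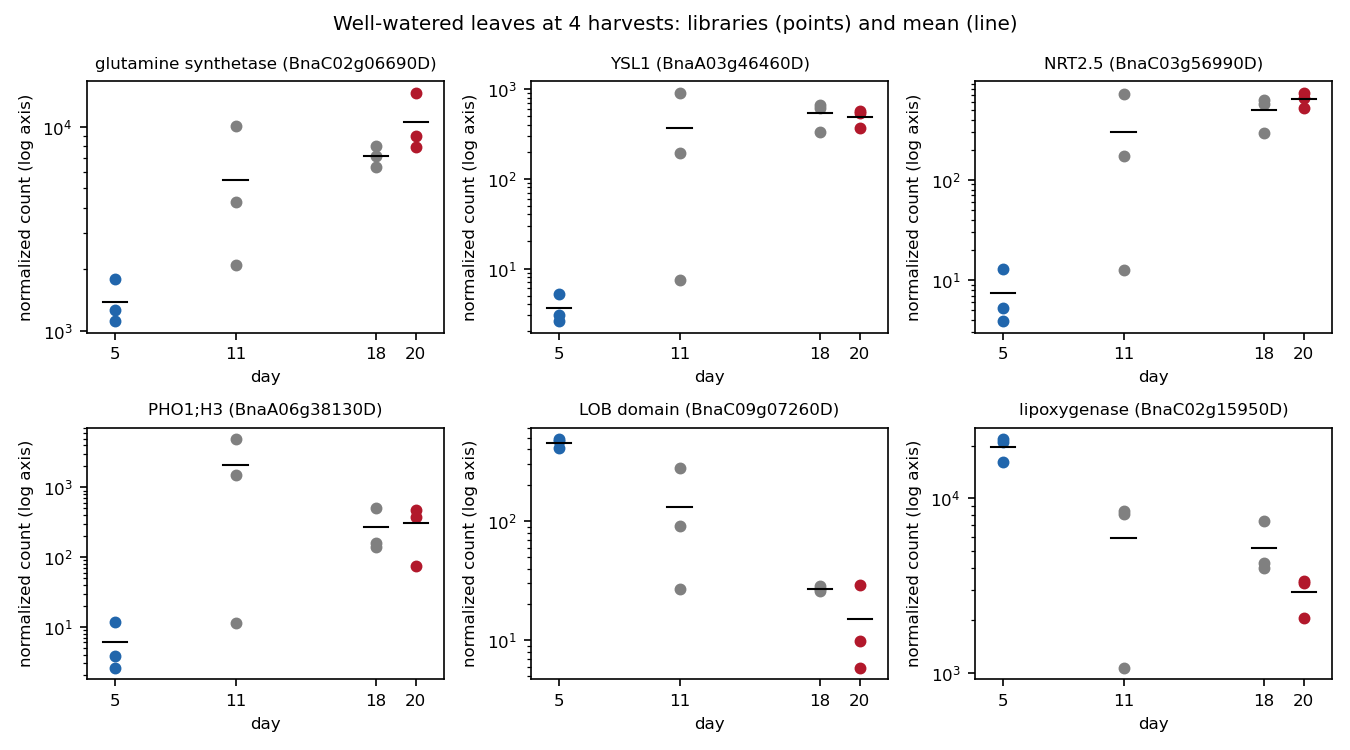
Normalized counts (log axis) of 6 genes in well-watered leaves at 5, 11, 18 and 20 d, 3 libraries each (points) with their mean (line). The place of the 11 d libraries on the day axis is nominal, since their harvest is uncertain. The 11 d libraries spread over most of the range between 5 d and 20 d, or beyond it for YSL1, PHO1;H3 and lipoxygenase, and the 18 d libraries lie near those of 20 d.

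Plants under water deficit (watering stopped at 0 d, with the 20 d plants held at 25% of field capacity) were sampled over the same interval, and their libraries are not shared with the controls. Between 20 d and 5 d 15559 genes were called in WD leaves (28.7%), 14.8% of tested genes higher and 13.9% lower. Of the 16992 genes called in controls, 88.6% had a log2 fold change of the same sign in WD leaves, 7620 were called in that direction there, and 122 were called in the opposite one. The shared calls are 44.8% of the control calls and 49.0% of the WD calls. Across all tested genes, the log2 fold changes of the 2 regimes had a Pearson correlation of 0.657. The share with the same sign was not computed for all tested genes. Of the 114 ion transporters, 26 rose and 1 fell in WD leaves, against 60 and 7 in controls. The study listed these genes because they were called for water deficit, on libraries that include those compared here. Their contrast between regimes is therefore not independent evidence of a difference. NPF7.3 BnaA05g35790D had a log2 fold change of 6.15 ± 1.10 (SE) in WD leaves (adjusted p = 0.00131), whereas PHT1-4 BnaC04g06480D had 0.12 ± 1.64 there (adjusted p = 0.966). The difference between the 2 regimes was called for 384 genes (0.708%), positive for 0.514% and negative for 0.193% of tested genes, and for 2 of 114 transporters and 59 of 1999 genes of the list with domain annotations. With each of the 12 libraries of this comparison left out in turn, the number was 13 to 159, lowest without the first control library of 20 d. Those 2 transporters were SULTR3;4 (BnaC01g35550D) and the ZIF1 copy BnaC02g04980D, while for PHT1-4 the difference did not pass the threshold in any copy.

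**Figure D5:**
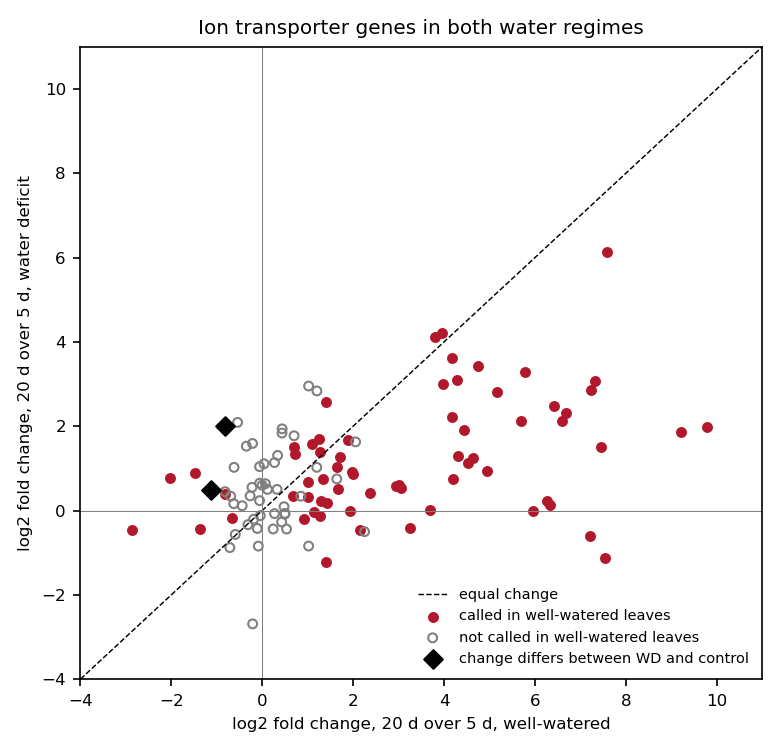
Log2 fold change of 20 d over 5 d for the 114 ion transporter genes in well-watered leaves (x axis) and in leaves under water deficit (y axis), with a dashed line of equal change. Most genes with a large rise in well-watered leaves lie below the line, and 2 genes (diamonds) had a change that differed between regimes at an adjusted p of at most 0.05. The study listed the genes as called for water deficit on libraries that include these, so their place beside the line is not independent evidence.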

How the data were processed

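Stranded polyA libraries of leaf RNA were sequenced in pairs. Per the study's methods, reads were trimmed (Trimmomatic 0.36), freed of rRNA (sortMeRNA 2.1), and mapped and counted with STAR 2.7.3a on the Genoscope *B. napus* genome. The authors deposited raw counts of read pairs per gene, of which the reverse-strand column was used. Pairs placed at several loci (8.13 to 8.84% in the 6 libraries) are on no gene, so near-identical A and C copies can lose counts.

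Genes with at least 0.6 CPM in 3 or more libraries were tested with edgeR 4.0.16 (TMM, quasi-likelihood test, Benjamini-Hochberg over all tested genes) in one model of 18 libraries, 6 groups and the replicate number. In simulated counts for 53269 genes, 200 of them changed, the test found 74% of 4-fold changes and 10% of 2-fold ones. In the data 31.3% of genes were called, and the adjustment depends on that share. The simulated shares are therefore not the sensitivity of the real comparison. Normalized counts use TMM factors over 24 libraries and are not scaled by gene length. Each SE was worked back from the test, as the size of the log2 fold change over the square root of the F statistic.

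Named genes were the 10 largest annotated rises and falls by fitted fold change (mean of at least 10, no overlap, the same direction in every replicate number), the 2 largest of any annotation, the 5 most abundant annotated genes called in each direction, and, per list, the 2 largest rises and falls and copies called in opposite directions; further transporter copies and family members were named after their values were seen. The members and lists were chosen with earlier results of these data known, and the WD comparison was added after seeing the data. Annotations and symbols come from the study's tables, one of them held only in part, whose values were not used. Alternatives were other tests (likelihood ratio, DESeq2 1.42.0), scalings, filters, strands, sets of libraries, and each library left out.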

Additional observations from a re-analysis of the deposited data

Results flagged for a closer look

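For 7 of the named genes the change between 20 d and 5 d differed between WD leaves and well-watered leaves by the test of the difference itself (WD change minus control change, log2). Chitinase BnaA03g32270D had a difference of 3.93 ± 0.75 (SE), adjusted p = 0.0364, with changes of -0.23 in WD leaves and -4.17 in well-watered leaves. A second chitinase, BnaC03g37570D, had a difference of 2.91 ± 0.60 (SE), adjusted p = 0.0455, from -0.42 in WD leaves and -3.32 in well-watered leaves. Sulfate transporter SULTR3;4 (BnaC01g35550D) had 2.83 ± 0.59 (SE), adjusted p = 0.0467, with 2.02 in WD leaves and -0.81, not called, in well-watered leaves. MADS-box gene BnaA07g28090D had 2.1 ± 0.42 (SE), adjusted p = 0.0402, with -0.11 in WD leaves and -2.20 in well-watered leaves. The ZIF1 copy BnaC02g04980D had 1.63 ± 0.35 (SE), adjusted p = 0.0489, with 0.49 in WD leaves and -1.14 in well-watered leaves. Dormancy/auxin gene BnaA03g57280D rose more in well-watered leaves, with a difference of -1.96 ± 0.41 (SE), adjusted p = 0.0475, from 0.97 in WD leaves and 2.93 in well-watered leaves. Dof gene BnaC04g31720D had -1.35 ± 0.23 (SE), adjusted p = 0.0228, with -0.75 in WD leaves and 0.60 in well-watered leaves. The number of genes with such a difference, 384, ranged over 13 to 159 in the 12 fits that each lacked 1 library.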

How the results depend on the processing

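The total for 20 d against 5 d stayed within 1.5 times of 16992 under the other tests, scalings, filters, strands and sets of libraries that were tried, and the 6 fits without 1 control library gave 9532 to 15822 genes in all, 5177 to 9175 higher and 4354 to 6647 lower. Leaving out a library of another group, chosen after seeing the data, gave 15737 to 18804 in all, 8945 to 10588 higher and 6792 to 8269 lower. Deviations of same-numbered libraries of the 2 harvests had correlations of -0.17 to 0.03, against -0.17 to 0.21 for differently numbered ones. With 3 libraries per harvest this cannot show whether the numbers mark blocks. Without the replicate block 17399 genes were called, 9736 higher and 7663 lower. In the 6 control libraries alone, 15373 were called with the block and 19793 without it. The count between 20 d and 11 d was 2669 by the likelihood ratio test, 2525 by DESeq2, 170 with all 24 libraries and 20 to 2534 with 1 library left out. The count for WD minus control ageing was 2602 by the likelihood ratio test, 2509 by DESeq2, 814 with all 24 libraries and 13 to 159 with 1 library left out. The cause was not tested. With a pseudocount of 10 the distances were 1.06 between 20 d and 5 d, 0.463 among 20 d libraries and 0.440 among 5 d libraries, and for genes with a mean of at least 10 the distance among 20 d libraries was 0.590. No named gene reversed its direction. Called named genes kept their call in 2708 pairs of gene and alternative and lost it in 37. With a library left out they kept it in 3214 pairs and lost it in 230. Those pairs include fits without an 11 d or a WD library, and many named genes were picked for large changes. Of all 16992 called genes, 8061 kept their call in each of the 6 fits without a compared library. In the simulation, with 200 of 53269 genes changed, the quasi-likelihood test found 10% of the 2-fold changes, the likelihood ratio test 32% and DESeq2 35%. False calls were 2 of 86, 35 of 155 and 49 of 171 calls, in that order.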
